A study of Mus musculus with 19 samples.

Results

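The 36 genes described here are markers and signalling genes of liver sinusoidal and vascular endothelium, measured in RNA from mouse hepatocyte preparations. They were taken by name: a gene belonged to the set when its symbol in the deposited count table was one of 36 listed endothelial genes, and all 36 were found among the 24537 genes of the table. By role they comprised 12 sinusoidal genes, 13 genes shared by endothelial cells in general, 7 genes of vascular or capillarised endothelium and 4 secreted angiocrine genes. The samples were 19 polyA RNA libraries, each from the hepatocytes of a different male WT C57BL/6J mouse, per the labels. Of these, 10 mice were 5 months old (young) and 9 were 24 months old (old). All belonged to a single line, and hepatocytes were obtained from every animal by perfusing the liver in 2 steps. No sorting or further purification is given in the sources used here, and no mouse carried a transgene or received a treatment according to the labels. The mice were killed on 2 days 23 days apart: 5 young and 5 old mice on the first cull day, and 5 young and 4 old mice on the second. Mice are named by their library numbers, of which 1180 to 1189 belong to the first cull day and 1235 to 1244 to the second.

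Liver sinusoidal endothelial cells line the blood channels between the plates of hepatocytes. They are perforated by open fenestrae, lack a continuous basement membrane, and clear waste from the blood through scavenger receptors and an inhibitory IgG receptor. In capillarisation, a change known from ageing and fibrotic livers, the fenestrae are lost and markers of continuous vessels such as Cd34, Plvap and Vwf appear. Endothelial cells around the central vein also release Wnt proteins and R-spondin, which maintain the pericentral programme of neighbouring hepatocytes, and sinusoidal cells release Bmp2, which controls iron regulation by hepatocytes. Hepatocytes are not known as the main source of most of these transcripts. In bulk RNA, a larger number of endothelial cells and more of a transcript per endothelial cell cannot be told apart.

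The libraries held 17381307 to 20287481 rounded counts over genes. Hepatocyte markers were abundant: the summed level of 9 hepatocyte markers was 101230 to 160518 CPM (counts scaled to library size) in young mice and 123015 to 205145 CPM in old mice. The 36 endothelial genes together reached 464 to 823 CPM in young mice and 547 to 1535 CPM in old mice. RNA of other non-parenchymal cells was present too. The sum of 14 macrophage markers was 106 to 523 CPM in young and 70.0 to 3355 CPM in old mice, and that of 15 stellate cell markers 54.0 to 143 CPM in young and 148 to 529 CPM in old mice. Old mouse 1187 gave the highest value of both sums, and without it the old maxima were 825 and 267 CPM. Among the defining markers, the Kupffer cell gene Clec4f reached 440 CPM in old mouse 1187, against an old mean of 97.5 CPM. For Clec4f, 2 old mice lay above the young maximum of 79.5 CPM. The stellate gene Lrat was higher in all 9 old mice than in any young mouse. The T cell gene Cd3e lay between 0 and 2.18 CPM in every library, and mouse 1187 was the 1 old mouse above its young maximum of 0.233 CPM.

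Promoter sequence was available for 23 of the 36 genes. Stab1, Cd34 and Emcn are shown because they stand for sinusoidal and capillary endothelium and hold an ETS motif, and Esm1 because it had the largest difference between ages. ETS factors such as Erg and Fli1 bind a GGAA core and are central to endothelial transcription. Each sequence is the 250 bases upstream of the RefSeq transcription start (GRCm38.p6), written 5′ to 3′ on the strand of the gene. Capitals mark CAGGAAG, or CTTCCTG where the motif lies on the opposite strand. The windows are chr14:31168642-31168891 on the minus strand for Stab1, chr1:194938571-194938820 on the plus strand for Cd34, chr3:137340828-137341077 on the plus strand for Emcn and chr13:113209409-113209658 on the plus strand for Esm1.
Stab1: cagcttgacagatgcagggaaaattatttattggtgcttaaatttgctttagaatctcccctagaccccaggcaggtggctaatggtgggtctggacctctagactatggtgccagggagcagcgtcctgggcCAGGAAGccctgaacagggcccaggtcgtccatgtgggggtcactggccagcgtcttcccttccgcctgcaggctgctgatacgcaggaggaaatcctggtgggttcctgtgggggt
Cd34: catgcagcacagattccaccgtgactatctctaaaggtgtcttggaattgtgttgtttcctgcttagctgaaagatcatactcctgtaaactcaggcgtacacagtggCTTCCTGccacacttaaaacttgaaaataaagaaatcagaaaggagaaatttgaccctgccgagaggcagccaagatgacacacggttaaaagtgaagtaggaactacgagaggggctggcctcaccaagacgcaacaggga
Emcn: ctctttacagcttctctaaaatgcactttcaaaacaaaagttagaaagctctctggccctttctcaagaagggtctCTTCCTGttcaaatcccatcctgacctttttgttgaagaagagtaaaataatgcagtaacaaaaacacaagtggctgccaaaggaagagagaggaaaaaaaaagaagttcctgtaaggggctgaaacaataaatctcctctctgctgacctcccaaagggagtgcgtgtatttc
Esm1: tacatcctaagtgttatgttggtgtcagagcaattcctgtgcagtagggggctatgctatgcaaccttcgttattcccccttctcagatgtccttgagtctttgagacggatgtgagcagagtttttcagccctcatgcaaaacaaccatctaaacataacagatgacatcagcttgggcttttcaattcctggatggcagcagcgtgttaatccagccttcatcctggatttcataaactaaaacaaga

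On either strand, CAGGAAG occurred in the promoters of 6 of the 23 genes (26.1%), namely Stab1, Mrc1, Egfl7, Robo4, Cd34 and Emcn, and in 12.1% of the promoters of 27025 genes. The related ETS motif CCGGAAG was in 0 of the 23 and in 7.83% of all promoters. Either CAGGAAG or CCGGAAG was in 6 of the 23 (26.1%) and in 19% of all. The GATA motif AGATAA was in 0 of the 23 and in 11.4% of all. The SOX motif ACAAAG was found for 3 genes (Tek, Eng and Egfl7; 13.0%) against 18.6% of all. None of the 4 motifs was in the Esm1 window, which says only that those letters are absent there. A match of letters is a description of the sequence and shows no binding.

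Endothelial transcripts were more abundant in the hepatocyte preparations of old mice. Of the 36 genes, 35 passed the filter on low counts, and 27 of them rose with age at an adjusted p under 0.05 (edgeR quasi-likelihood test with cull day as a covariate). The corresponding share among all 12269 tested genes was 30.9% called in either direction, 16.3% higher and 14.5% lower. No gene of the set was called lower, at the adjusted threshold or at an unadjusted p under 0.05, with edgeR, and DESeq2 also called 0 lower. The median log2 fold change was 0.72 over the 35 tested genes, against -0.003 over all genes tested, with a range from -0.03 for Wnt2 to 4.74 for Esm1. Mean CPM was higher in old mice for 35 of the 36 genes. In spite of these shifts most genes overlapped between ages: every old mouse lay above every young mouse for 2 genes, Esm1 and Rspo3, as it did for 0.994% of all tested genes.

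**Figure D1:**
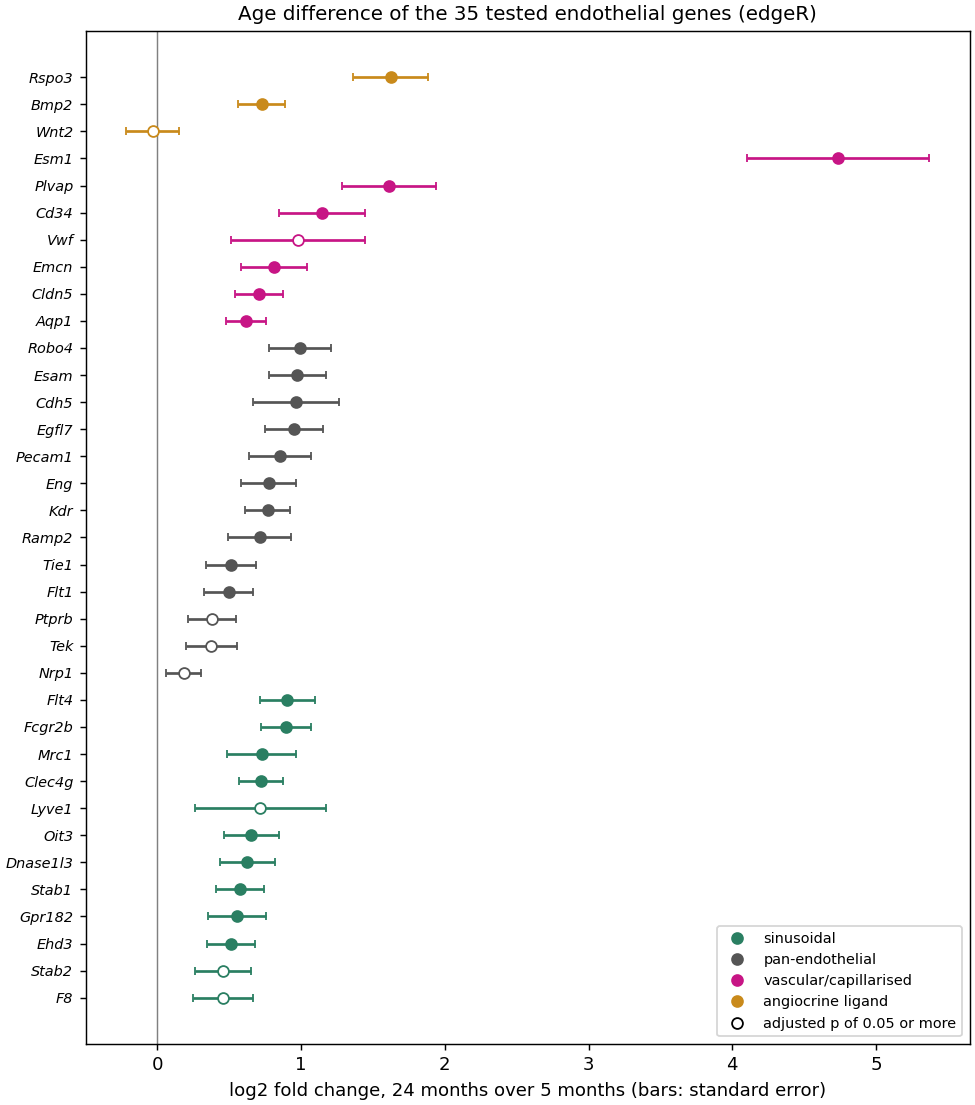
Log2 fold change (24 months against 5 months, x axis) for each of the 35 tested endothelial genes (y axis), grouped and coloured by role, with bars of 1 standard error, and filled symbols for genes past the adjusted threshold. Most genes sit between 0.4 and 1.0, Esm1 stands far to the right at 4.74, and Wnt2 lies at -0.03.

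The differences were spread unevenly over the old mice. Old mouse 1187 had the highest level among old mice for 24 of the 36 genes, and mouse 1242 for 10. Old mouse 1183 had the lowest level for 28 genes and often fell within the young range. Among young mice, 1235 was highest for 21 genes and 1184 for 11. Young mice 1184, 1186 and 1188 stood apart in the hepatocyte gene Alb, at 61126 to 62572 CPM against 102944 to 116229 CPM in the other young mice. Without these 3 mice, 23 genes of the set were called higher, with a median log2 fold change of 0.77, and 27.2% of all genes were called, 14.6% higher. Without mouse 1187, 21 genes of the set were called higher, with a median log2 fold change of 0.58, and 24.5% of all genes were called, 12.4% higher. When each of the 19 mice was left out in turn, 20 of the 27 called genes passed in every fit. The other 7, which missed the threshold in at least 1 fit, were Mrc1, Gpr182, Ehd3, Cdh5, Tie1, Flt1 and Ramp2.

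The 2 cull days were also examined separately. On the second cull day, 19 of 35 genes were called higher, all 35 had a positive log2 fold change and the median was 0.68, with 19.3% of all genes called, 12.2% higher. On the first cull day, 32 of 34 tested genes were positive and the median was 0.74, but Esm1 and Rspo3 alone passed the threshold, with 3.67% of all genes called, 1.88% higher. The age by cull day interaction was significant for 0 of 12269 genes with edgeR (799 had an unadjusted p under 0.05, 6.51%), and DESeq2 called 18 genes, 0 of them in the set. For the endothelial genes the smallest adjusted interaction p was 0.737 with edgeR, and 1 gene, Nrp1, had an unadjusted p under 0.05.

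Among the 12 sinusoidal genes, 9 rose with age and the median log2 fold change was 0.64. Their summed level was 209 to 400 CPM in young mice and 213 to 726 CPM in old mice. Macrophages also express Mrc1, Fcgr2b, Lyve1 and Stab1, and the macrophage markers given above moved with age as well: 13 of 14 rose, 3 of 14 without mouse 1187.

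The lectin Clec4g, which marks sinusoidal endothelium (chromosome 8, 3716071 to 3720651, mm10), ranged from 19.3 CPM (median 26.2) to 37.3 CPM in young mice. In old mice it ranged from 25.4 CPM (median 42.7) to 63.5 CPM. The upper 6 old mice exceeded every young mouse and the lowest, 1183, fell inside the young range. Clec4g rose by 0.72 on the log2 scale (SE 0.151, edgeR adjusted p = 0.00227).

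Stab2, a scavenger receptor that takes up hyaluronan (chromosome 10, 86841210 to 87007942), ranged from 21.7 CPM (median 28.5) to 44.9 CPM in young mice and from 16.6 CPM (median 42.8) to 64.8 CPM in old mice. The 2 ages overlapped widely, with 3 old mice above all young mice and mouse 1183 below them all. Its log2 fold change of 0.46 (SE 0.192) did not pass the threshold (edgeR adjusted p = 0.0771). Stab2 did pass when old mouse 1183 was left out, at 0.56 (edgeR adjusted p = 0.00968), or young mouse 1184, at 0.54 (edgeR adjusted p = 0.0413). Its relative Stab1, also a scavenger receptor, rose by 0.58 (SE 0.168, edgeR adjusted p = 0.0154), from 23.3 ± 5.08 CPM in young mice (SD, n = 10) to 34.5 ± 11.0 CPM in old mice (SD, n = 9). Stab1 overlaps Nt5dc2 on the opposite strand, and the strand setting of the counting is not given in the sources used here.

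The inhibitory IgG receptor Fcgr2b, through which sinusoidal cells remove immune complexes (chromosome 1, 170960559 to 170976071), ranged from 15.8 CPM (median 20.2) to 27.7 CPM in young mice and from 21.0 CPM (median 37.6) to 68.2 CPM in old mice. All old mice but 1183 were above the young maximum. The log2 fold change was 0.90 (SE 0.172, edgeR adjusted p = 0.00125). Flt4, the receptor VEGFR3, rose by the same amount, 0.90 (SE 0.193, edgeR adjusted p = 0.00255), with 7 old mice above all young mice.

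Mrc1, the mannose receptor, stood at 31.4 ± 7.94 CPM at 5 months (SD, n = 10) and 52.2 ± 29.0 CPM at 24 months (SD, n = 9), a rise that passed the test at 0.72 on the log2 scale (SE 0.239, edgeR adjusted p = 0.028). Mouse 1187 alone was at 124 CPM against an old median of 45.3 CPM, and without it the log2 fold change was 0.45 and missed the threshold (edgeR adjusted p = 0.0642). Mrc1 also missed it without old mouse 1242. Lyve1, the hyaluronan receptor of sinusoidal and lymphatic endothelium, ranged from 1.36 CPM (median 2.53) to 7.76 CPM in young mice and from 1.04 CPM (median 3.29) to 25.8 CPM in old mice. The old maximum was again mouse 1187, the one old mouse above the young range. Lyve1 differed by 0.72 (SE 0.452, edgeR adjusted p = 0.236) with all mice and by -0.02 without mouse 1187.

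Of the remaining sinusoidal genes, Oit3, a zona pellucida domain protein, rose by 0.65 and the secreted nuclease Dnase1l3 by 0.63 on the log2 scale. The chemokine scavenger Gpr182 and the endocytic recycling protein Ehd3 rose by 0.55 and 0.51. Gpr182 (edgeR adjusted p = 0.0415 with all mice) and Ehd3 (edgeR adjusted p = 0.0256) missed the threshold when mouse 1187 or mouse 1242 was left out. For Ehd3 these were the only such fits, while Gpr182 missed it in 13 of the 19 fits that left out a mouse. Coagulation factor VIII, encoded by F8, was at 10.7 CPM in young and 14.6 CPM in old mice on average and did not pass (log2 fold change 0.45, edgeR adjusted p = 0.101). Without mouse 1183, which had the lowest F8 level, it passed at 0.57 (edgeR adjusted p = 0.0117).

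**Figure D2:**
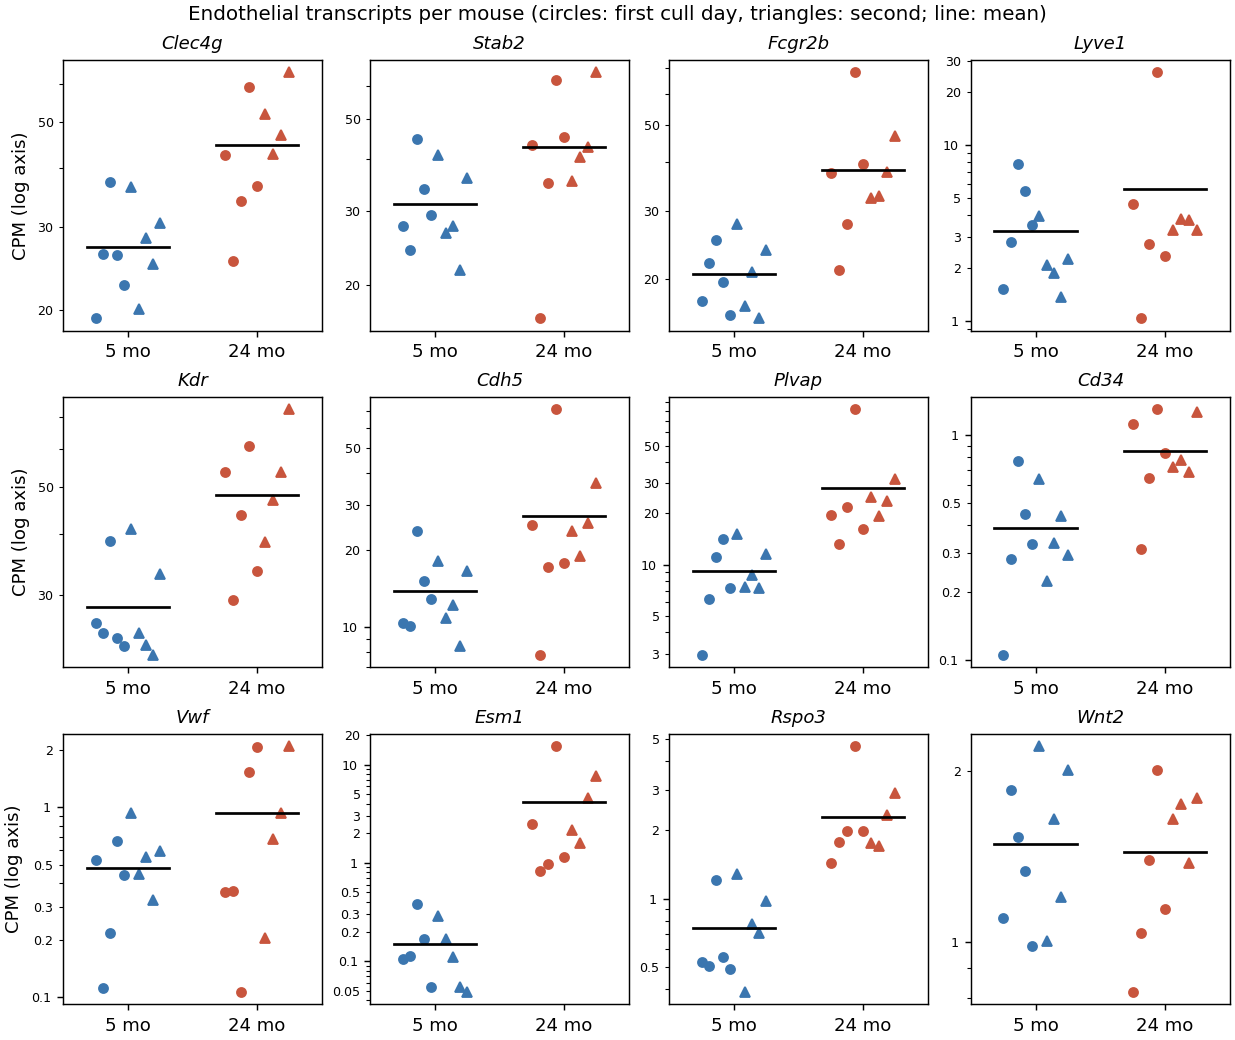
CPM per mouse (y axis, log scale) for 12 endothelial genes at 5 and 24 months; circles are mice of the first cull day, triangles mice of the second, and the line is the mean. Esm1 and Rspo3 are the panels in which the 2 ages do not overlap; in several others a low old mouse (1183) lies among or below the young mice and 1 old circle (1187) stands high.

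Of the 13 genes shared by endothelial cells in general, 10 rose and the median log2 fold change was 0.77. Junction genes were among them. Pecam1 (CD31) ranged from 7.02 CPM (median 9.55) to 16.6 CPM in young mice and from 9.55 CPM (median 17.8) to 34.9 CPM in old mice, with 6 old mice above all young mice. It rose by 0.85 on the log2 scale (SE 0.216, edgeR adjusted p = 0.00727). Esam, an adhesion molecule of endothelial tight junctions, rose by 0.97 (SE 0.201, edgeR adjusted p = 0.00205), and 8 of 9 old mice were above the young maximum of 5.83 CPM.

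Cdh5, which encodes VE-cadherin (chromosome 8, 104101625 to 104144502), ranged from 8.45 CPM (median 12.6) to 23.8 CPM in young mice and from 7.79 CPM (median 23.8) to 71.2 CPM in old mice. Its lowest and highest values were both in old mice, 1183 and 1187. The antisense gene Gm29682 overlaps it, and Fpgs overlaps Eng on the opposite strand. Cdh5 rose by 0.96 (SE 0.3, edgeR adjusted p = 0.0214) over all 19 mice. Without mouse 1187 the log2 fold change was 0.61 and missed the threshold (edgeR adjusted p = 0.0591).

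Both VEGF receptors of this group were called. Kdr (VEGFR2, chromosome 5, 75933270 to 75978428) ranged from 22.6 CPM (median 25.0) to 41.0 CPM in young mice and from 29.3 CPM (median 47.0) to 72.5 CPM in old mice. All 9 old mice were above the young median and 6 above the young maximum. Kdr rose by 0.77 (SE 0.158, edgeR adjusted p = 0.00203), and Flt1 (VEGFR1) rose by 0.50 (SE 0.169, edgeR adjusted p = 0.0323), a call that was lost in 10 of the 19 fits that left out a mouse. The difference between Kdr and Flt1 was not tested.

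Nrp1, a co-receptor for VEGF and semaphorins, was not called. It ranged from 47.3 CPM (median 72.0) to 132 CPM in young mice and from 71.6 CPM (median 80.0) to 130 CPM in old mice. No old mouse lay above the young maximum, and the young mice 1184, 1186 and 1188, all of the first cull day, were at 132, 110 and 109 CPM. The log2 fold change was 0.18 with all mice (edgeR adjusted p = 0.278), -0.06 on the first and 0.45 on the second cull day (edgeR adjusted p = 0.011 on the second). These are the 3 highest young values.

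Robo4 (an endothelial roundabout receptor) and Egfl7 (a secreted endothelial factor whose gene hosts miR-126) rose by 0.99 and 0.95, and Eng, a co-receptor for BMP9 and TGF-beta, rose by 0.77 on the log2 scale. Ramp2, the partner of the adrenomedullin receptor, rose by 0.71 (edgeR adjusted p = 0.0211), and without mouse 1242 its adjusted p was 0.0547. Tie1, a receptor of the angiopoietin system, rose by 0.51 (edgeR adjusted p = 0.0305), a call lost in 7 of the 19 fits that left out a mouse, those without 1187 and 1242 among them. The angiopoietin receptor Tek differed by 0.38 (SE 0.175, edgeR adjusted p = 0.11) and the phosphatase Ptprb, which acts on Tek, by 0.38 (SE 0.168, edgeR adjusted p = 0.0921). Both passed the threshold without mouse 1183, Tek at 0.45 (edgeR adjusted p = 0.0437) and Ptprb at 0.45 (edgeR adjusted p = 0.0319).

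Among the 7 genes of vascular or capillarised endothelium, 6 rose and the median log2 fold change was 0.98. Esm1 (endocan), a secreted proteoglycan made by sprouting endothelial tip cells, had the largest difference of the set. It is encoded on chromosome 13 (113209659 to 113218104). Young mice ranged from 0.049 CPM (median 0.111) to 0.383 CPM, which is 1 to 7 counts per library. Old mice ranged from 0.831 CPM (median 2.16) to 15.5 CPM, or 16 to 356 counts. The groups did not overlap, and mice 1187 and 1242 were highest at 15.5 and 7.69 CPM.

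Esm1 rose by 4.74 on the log2 scale (SE 0.633, edgeR adjusted p = 7.43e-05), a fitted ratio of 26.7. The ratio is imprecise, with 1 to 7 counts per young library and old values spread from 0.831 to 15.5 CPM. Esm1 passed the filter through the old mice alone: 0 of 10 young and 9 of 9 old libraries held 10 or more counts. With no filter it was 4.70 (edgeR adjusted p = 5.56e-05). It was 4.01 without mouse 1187 (edgeR adjusted p = 1.63e-05). By cull day it was 4.61 on the first (edgeR adjusted p = 0.0391) and 4.87 on the second (edgeR adjusted p = 0.000587).

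Plvap, whose protein forms the diaphragms of fenestrae and caveolae in continuous and fenestrated vessels, lies on chromosome 8 (71497753 to 71511769). It ranged from 2.95 CPM (median 8.04) to 15.2 CPM in young mice and from 13.3 CPM (median 21.8) to 81.8 CPM in old mice. All old mice but 1183 exceeded the young maximum, and mouse 1187 stood far above the other old mice. Plvap rose by 1.61 on the log2 scale (SE 0.329, edgeR adjusted p = 0.0019), and by 1.20 without mouse 1187 (edgeR adjusted p = 0.000882).

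Cd34, a sialomucin of continuous capillaries (chromosome 1, 194938821 to 194961292), was scarce. It ranged from 0.105 CPM (median 0.33) to 0.765 CPM in young mice, 2 to 14 counts, and from 0.312 CPM (median 0.777) to 1.31 CPM in old mice, 6 to 30 counts. Above the young maximum lay 5 of the 9 old mice. Cd34 rose by 1.14 (SE 0.299, edgeR adjusted p = 0.00873). It passed the filter mainly through the old mice, with 10 or more counts in 2 of 10 young and 8 of 9 old libraries, and with no filter it was 1.11 (edgeR adjusted p = 0.0131). The antisense gene Gm16897 overlaps it, and without a stated strand setting reads of the pair cannot be told apart.

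Vwf, the platelet-binding glycoprotein of large vessels (chromosome 6, 125552948 to 125686679), was as scarce, at 2 to 16 counts in young and 2 to 40 counts in old mice. It ranged from 0.112 CPM (median 0.487) to 0.933 CPM in young mice and from 0.107 CPM (median 0.68) to 2.11 CPM in old mice. The old mice were split: 4 lay above all young mice, 4 among them and mouse 1185 just below them. Its log2 fold change of 0.98 (SE 0.467) did not pass (edgeR adjusted p = 0.117).

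The other capillary genes changed by smaller amounts. Emcn (endomucin, an anti-adhesive sialomucin) rose by 0.81 (edgeR adjusted p = 0.013), the tight junction gene Cldn5 by 0.71 (edgeR adjusted p = 0.00503) and the water channel Aqp1 by 0.62 (edgeR adjusted p = 0.00356). For Cldn5 and Aqp1 all 9 old mice were above the young median.

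Of the 4 secreted angiocrine genes 3 were tested, and 2 of them, Rspo3 and Bmp2, rose. Rspo3, the R-spondin that strengthens Wnt signalling around the central vein (chromosome 10, 29453107 to 29535867), ranged from 0.391 CPM (median 0.633) to 1.28 CPM in young mice and from 1.43 CPM (median 1.98) to 4.67 CPM in old mice. All 9 old mice were above all young mice, at 28 to 107 counts against 7 to 22. Rspo3 rose by 1.62 on the log2 scale (SE 0.26, edgeR adjusted p = 0.000301), 1.40 without mouse 1187 (edgeR adjusted p = 0.000146). Both cull days passed alone, at 1.84 (edgeR adjusted p = 0.038) and 1.38 (edgeR adjusted p = 0.00649). Stellate cells of the liver also express Rspo3, and 13 of the 14 tested stellate markers rose with age, 10 of them without mouse 1187.

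Wnt2, the main Wnt ligand of pericentral sinusoidal cells (chromosome 6, 17988940 to 18030445), ranged from 0.987 CPM (median 1.43) to 2.22 CPM in young mice and from 0.819 CPM (median 1.39) to 2.01 CPM in old mice. The 2 ages overlapped over nearly their whole ranges. Its log2 fold change was -0.03 (SE 0.185, edgeR adjusted p = 0.91), and its sign changed with the scaling and with the mice left out. Wnt9b, the Wnt ligand of central vein endothelium, was at 0 to 4 counts in young and 0 to 8 counts in old mice and fell below the filter. Its mean log2 CPM was 0.29 higher in old mice, which was not detectable as a difference at this depth (exact two-sided permutation test within cull days, p = 0.352).

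Bmp2, which acts on hepatocytes to induce the iron hormone hepcidin, ranged from 6.43 CPM (median 8.93) to 15.1 CPM in young mice and from 8.41 CPM (median 15.4) to 21.2 CPM in old mice. It rose by 0.72 (SE 0.166, edgeR adjusted p = 0.00405), with 5 old mice above all young mice.

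Per kilobase of transcript, the order of the genes was led by Aqp1 and Clec4g at both ages. Aqp1 stood at 23.2 CPM per kb in young and 35.2 in old mice, and Clec4g at 22.2 and 36.5 CPM per kb, differences between these 2 genes that were smaller than their spread among mice. Bile duct cells also express Aqp1. Below them in young mice came Nrp1 at 13.6 CPM per kb, Fcgr2b at 13.4, Ehd3 at 11.4 and Dnase1l3 at 10.6 CPM per kb. The capillarised markers Cd34 and Vwf stood far lower at both ages, with Cd34 at 0.147 and 0.327 CPM per kb and Vwf at 0.0548 and 0.106 CPM per kb. Plvap stood at 4.57 CPM per kb in young mice, rank 13 of 36, and 14.0 CPM per kb in old mice, rank 8. Esm1 moved from rank 34 to rank 28, at 0.0713 and 1.96 CPM per kb.

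Sinusoidal and capillarised markers were then set against each other within each mouse. The sinusoidal level, the mean log2 CPM of Stab2 and Clec4g, was 4.84 ± 0.30 (SD, n = 10) in young and 5.39 ± 0.47 (SD, n = 9) in old mice, a difference of 0.57 averaged over cull days. The capillarised level, the mean log2 CPM of Cd34, Plvap and Vwf, was 0.36 ± 0.49 (SD, n = 10) in young and 1.36 ± 0.69 (SD, n = 9) in old mice, a difference of 1.01. Both levels were thus higher in old mice on average, the sinusoidal one in 6 and the capillarised one in 5 of 9 old mice above all young mice.

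The sinusoidal minus the capillarised level ranged from 4.03 (median 4.41) to 4.97 in young mice and from 3.41 (median 4.06) to 4.53 in old mice. Below the young range lay 4 of the 9 old mice, namely 1183 at 3.91, 1187 at 3.41, 1189 at 3.66 and 1242 at 3.81. The other 5 old mice lay among the young. The old mean was lower by 0.44 over both cull days, -0.69 on the first and -0.19 on the second, beside SDs of 0.33 (n = 10) in young and 0.38 (n = 9) in old mice. No p is given for this score, whose genes were chosen with results in view. It also rests in part on Cd34 and Vwf, whose counts per library were as low as 2.

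**Figure D3:**
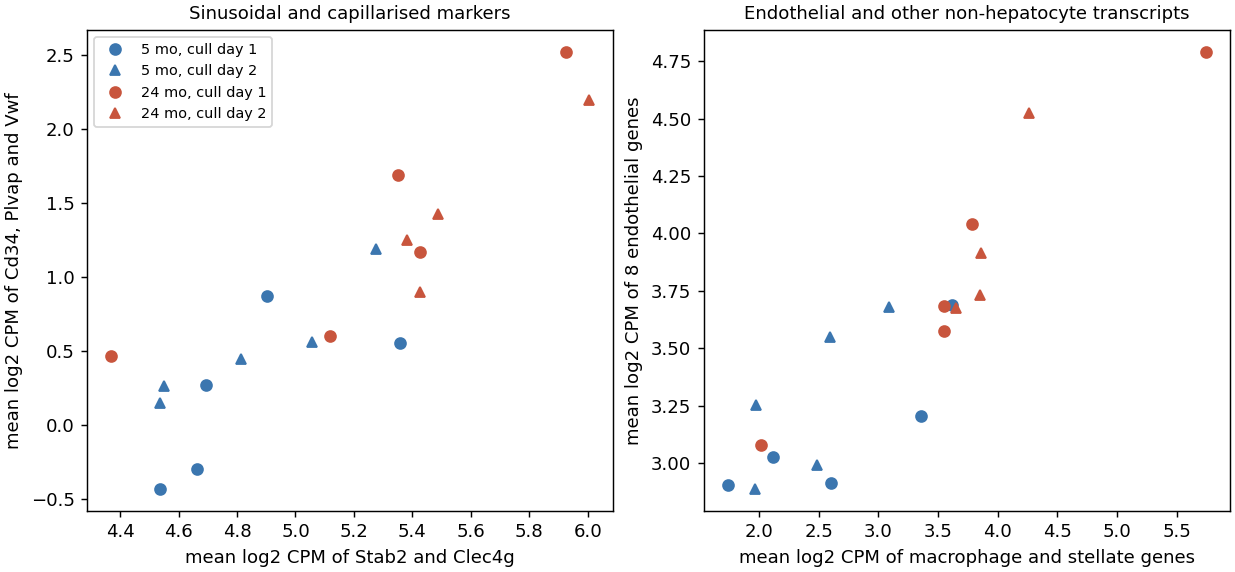
Left, the capillarised level (mean log2 CPM of Cd34, Plvap and Vwf, y axis) against the sinusoidal level (mean log2 CPM of Stab2 and Clec4g, x axis) of each mouse; right, the mean log2 CPM of 8 endothelial genes (y axis) against that of the macrophage and stellate markers (x axis). Points are mice, coloured by age, with circles for the first and triangles for the second cull day. Mouse 1187 is the highest point on the right at 4.79 and mouse 1183 the lowest old point at 3.08, and mice high on an x axis tend to be high on the y axis.

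To set each gene beside the general endothelial level of its mouse, age was refitted with a measure of endothelial RNA as a covariate, the mean log2 CPM of Pecam1, Cdh5, Tie1, Tek, Esam, Ptprb, Robo4 and Egfl7. These are themselves genes of the set, so the fit takes out their common level by construction. The measure was 3.21 ± 0.32 (SD, n = 10) in young and 3.89 ± 0.51 (SD, n = 9) in old mice. With it in the fit, 2 genes of the set remained higher, Esm1 at 2.56 (edgeR adjusted p = 0.000284) and Rspo3 at 0.93 (edgeR adjusted p = 0.0142). So did 6 of the 14 tested stellate markers, Lrat at 0.99 among them, and 0 were lower. Stellate cells also express Rspo3, and the cell source of its RNA was not tested. Of all genes 5.64% were then called, 3.15% higher. The median of the set was 0.07, and 22 of 35 genes were positive.

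With the mean log2 CPM of 28 macrophage and stellate markers as the covariate, 3 genes were higher: Esm1 at 2.67 (edgeR adjusted p = 0.00069), Rspo3 at 1.03 (edgeR adjusted p = 0.00878) and Plvap at 0.56 (edgeR adjusted p = 0.0472). Lyve1 was lower at -1.13 (edgeR adjusted p = 0.000706), and macrophages also express it. The same fit called 10 of the 14 macrophage markers lower and 8 of the 14 tested stellate markers higher. These markers make up the score itself. In that fit 13.7% of all genes were called, 6.94% higher and 6.79% lower. The measure of macrophage and stellate RNA was 2.56 ± 0.63 (SD, n = 10) in young and 3.81 ± 0.96 (SD, n = 9) in old mice. Its part in the age differences above was not tested beyond these values.

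**Figure D4:**
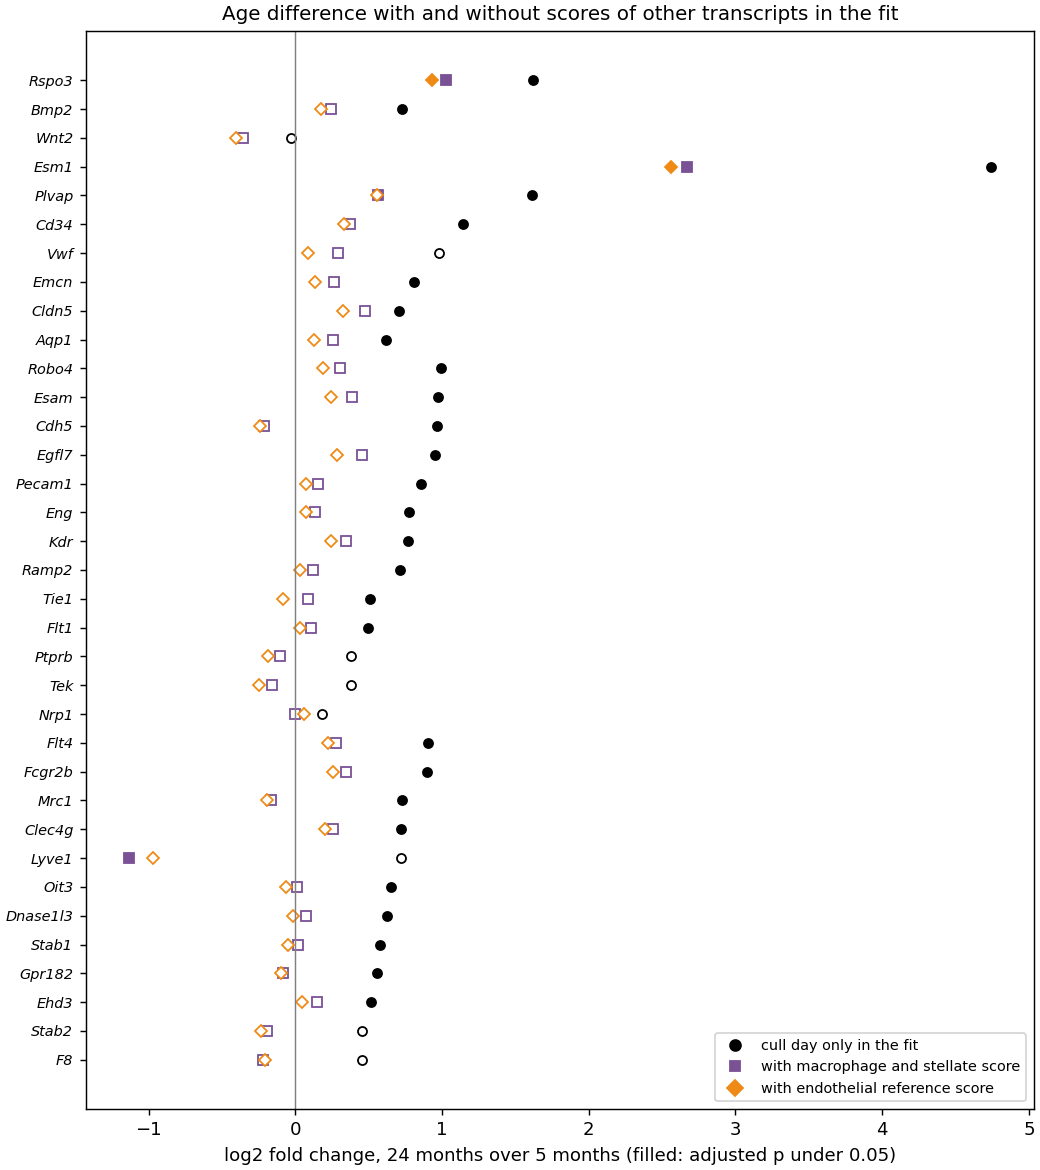
Age log2 fold change (x axis) of each tested endothelial gene (y axis) in 3 fits: cull day only, with the macrophage and stellate score added, and with the endothelial reference score added. With either score most genes move towards 0, while Esm1 remains at 2.56 or above and Lyve1 moves below 0.

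Other endothelial genes, from lists that exclude the 36 but share a few genes with each other, were described in the same way. Of 20 tested transcription factors and regulators of endothelium (24 listed), 14 rose and 0 fell with edgeR, with a median log2 fold change of 0.84. Foxf1, a forkhead factor of mesenchyme and endothelium, rose from 0.312 ± 0.172 CPM in young mice (SD, n = 10) to 1.29 ± 0.601 CPM in old mice (SD, n = 9), or 2.02 on the log2 scale (SE 0.308, edgeR adjusted p = 0.000219). Its lowest old mouse exceeded its highest young mouse. Sox18 and Erg, an endothelial SOX and ETS factor, rose by 1.18 and 0.83. Gata4, which specifies sinusoidal identity and is also expressed by stellate cells and hepatocytes, rose by 0.39 (SE 0.0808, edgeR adjusted p = 0.0021).

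In the list of VEGF, angiopoietin, adrenomedullin and Notch signalling, 12 of 19 tested genes (26 listed) rose, with a median of 0.57. The Notch ligand Dll4 rose by 1.35 (SE 0.255, edgeR adjusted p = 0.00109), the receptor Notch1 by 0.60 (SE 0.14, edgeR adjusted p = 0.0047), the peptide hormone Adm by 1.61 (SE 0.369, edgeR adjusted p = 0.00403) and Gdf2 (BMP9, made mainly by stellate cells) by 1.31 (SE 0.272, edgeR adjusted p = 0.00216). Of 18 tested adhesion and activation genes (22 listed), 7 rose (4 without mouse 1187), with a median of 0.63, or 0.44 without that mouse. Examples were Ecscr at 1.17, Ushbp1 at 0.73, Podxl at 0.50 and the leukocyte adhesion molecule Vcam1 at 2.06. Vcam1 was at 113 CPM in its highest old mouse and at 20.9 ± 34.9 CPM on average in old mice (SD, n = 9), against 4.57 ± 3.38 CPM (SD, n = 10) in young mice. Without mouse 1187 its log2 fold change was 1.10 (edgeR adjusted p = 0.0396).

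Genes of portal and of central vein endothelium were listed apart. Of 8 tested portal genes (9 listed), 6 rose (4 without mouse 1187), with a median of 1.09, or 0.71 without that mouse. Those that rose included Ltbp4 at 1.16, Il1a at 1.29 and Ntn4 at 1.06, besides Dll4. Of 9 central vein genes, 2 rose (also 2 without mouse 1187), with a median of 0.38, or 0.11 without that mouse. The 2 genes were Dkk3 at 1.28 (edgeR adjusted p = 0.000283) and Ptgs1 at 1.10 (edgeR adjusted p = 0.0152). Of all tested genes 16.3% were called higher, which is near the share of the central vein list. The difference between the lists was not tested, and Il1a and Ptgs1 are also expressed by macrophages.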

How the data were processed

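PolyA RNA of hepatocyte preparations was measured in 19 mice. The authors deposited 1 table of estimated counts per gene. Per the file headers it was written by HOMER for mm10 (GRCm38), counting exon reads of RefSeq transcripts condensed to genes; STAR is named in the submitters' processing notes. Strand setting and treatment of multiply mapped reads are not given in the sources used here. Of the values 29.2% were not whole (steps of 0.5), so the test planned for counts was run on rounded counts, ties to even. Coordinates are those of the table, counted from 1.

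Age was tested with edgeR 4.0.16 (R 4.3.3; quasi-likelihood, TMM scaling, filterByExpr with a minimum count of 10, cull day as covariate, Benjamini-Hochberg over 12269 genes, threshold 0.05). A standard error is the log2 fold change divided by the root of F. CPM in the text is the rounded count scaled to the TMM-adjusted library total; log2 CPM uses a prior count of 2. In simulated data on 12211 genes, 87 of 100 genes changed by 1 log2 unit and 98 of 99 changed by 2 were recovered, with 9 false calls of 194. Totals were 17381307 to 20287481 rounded counts per library; intervals and p-values cover the spread between mice. Alternatives used DESeq2 1.42.0 and limma 3.58.1, other scalings, filters, covariates and subsets of mice; unrounded counts and the totals in the column names were added after seeing the data.

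The endothelial genes and all lists were chosen with earlier results of these data known. All 36 genes are accounted for; other lists are represented by at most the 4 genes of smallest p, or defining markers. Lists for other cells not described in the text were lymphatic, T and NK, B and plasma, neutrophil, cholangiocyte, platelet and erythroid markers and hepatocyte Wnt targets, given at the end. Promoters came from RefSeq (GRCm38.p6), matched by symbol. Scripts used Python 3.11.15, numpy 2.4.6, pandas 2.3.3 and matplotlib 3.10.9.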

Additional observations from a re-analysis of the deposited data

Results flagged for a closer look

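Within each age, the log2 CPM of each of the 36 genes was examined for a mouse standing apart from the rest, by the gap to its nearest neighbour as a share of the group's range. Of 72 groups examined, 5 exceeded Dixon's 95% critical value (0.493 for 9 mice, 0.466 for 10), and chance alone gives such a gap in about 5 of 100 groups.

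Old mouse 1187 stood apart as the highest old mouse for Lyve1, at a log2 CPM of 4.69 against 0.19 to 2.24 in the other old mice (gap 0.546 of the range), and for Plvap, at 6.36 against 3.74 to 4.99 (gap 0.523). Old mouse 1183 stood apart as the lowest old mouse for Stab2, at 4.06 against 5.14 to 6.02 (gap 0.550), and for Bmp2, at 3.09 against 3.77 to 4.41 (gap 0.512). Young mouse 1235 was the highest young mouse for Dnase1l3, at 6.18 against 4.75 to 5.45 (gap 0.508).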

How the results depend on the processing

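Under 7 alternatives (both other scalings, both other filters, DESeq2, limma-voom and no cull day term) 26 or 27 endothelial genes were called higher and 0 lower; the same held for unrounded counts and for the totals in the column names, both chosen after seeing the data. Genes called over the whole table numbered 3785, and 450 on the first cull day, 2388 on the second, 1684 with the macrophage and stellate covariate and 692 with the endothelial covariate, and 3014 to 3949 when a mouse was left out. Endothelial genes called higher numbered 27, and 2 on the first cull day, 3 and 2 with those covariates, and 21 (without 1187, or without 1242) to 31 (without 1183) when a mouse was left out. With the macrophage and stellate covariate 1 gene, Lyve1, was lower. The interaction count was 0 with edgeR and 18 with DESeq2, none of the 18 in the set. The sinusoidal minus capillarised difference was -0.52 to -0.37 when a mouse was left out, and -0.65 with all sinusoidal and vascular genes. It was -0.51 with a prior count of 0.5, -0.35 with a prior count of 5 and -0.61 without young mice 1184, 1186 and 1188. The causes of these changes were not tested; a single cull day has fewer mice.

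The direction of some log2 fold changes turned. With the endothelial covariate they were Stab1 -0.053, Stab2 -0.24, Lyve1 -0.97, Mrc1 -0.20, Oit3 -0.066, Dnase1l3 -0.014, Gpr182 -0.10, F8 -0.21, Cdh5 -0.24, Tek -0.25, Tie1 -0.086 and Ptprb -0.19. With the macrophage and stellate covariate they were Stab2 -0.20, Lyve1 -1.13, Mrc1 -0.17, Gpr182 -0.084, F8 -0.22, Cdh5 -0.21, Tek -0.16, Ptprb -0.10 and Nrp1 -0.0027. Nrp1 was -0.060 on the first cull day, and Lyve1 between -0.019 (without 1187) and 0.89 (without 1184) when a mouse was left out. Wnt2 was 0.019 with library totals, 0.022 on the second cull day, and -0.14 to 0.036 when a mouse was left out, positive without 1181, 1182, 1183, 1235 or 1244. Without young mice 1184, 1186 and 1188, 3355 genes (27.2%; 14.6% higher) and 23 endothelial genes were called: Mrc1, Dnase1l3, Ehd3, Tie1 and Flt1 missed the threshold and Nrp1, for which these were the highest young mice, passed it at 0.39. Vwf and Wnt9b gave no value on the first cull day. No paired analysis was possible because the mice of the 2 ages share no replicate numbers. Depth limits Wnt9b, Vwf, Cd34 and young Esm1, at a few counts per library.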

Other observations

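Hepatocyte targets of Wnt signalling, the genes around the central vein that Wnt2, Wnt9b and Rspo3 act on, were called at about the rate of all genes. Of 14 tested, 3 were lower in old mice and 1 was higher, and the median log2 fold change was -0.22. Over all tested genes 14.5% were called lower and 16.3% higher. The lower genes were Oat, an ornithine aminotransferase, at -0.59 (edgeR adjusted p = 0.00503), the ammonium transporter Rhbg at -1.03 (edgeR adjusted p = 0.0121) and the R-spondin receptor Lgr5 at -0.70 (edgeR adjusted p = 0.0134). The Wnt feedback inhibitor Nkd1 rose by 0.96 (edgeR adjusted p = 0.00892). Their relation to the endothelial ligands was not tested.

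Markers of other cells gave these values. Of 5 lymphatic endothelial genes 2 were tested and 1 rose, Reln at 1.44, which is also a stellate cell gene; Pdpn was at 0 in every library. Of 8 T and NK cell markers listed, 7 were matched in the table and none of these passed the filter. Their sum was at most 0.7 CPM in young and 21.0 CPM in old mice (1.79 CPM without mouse 1187). Jchain (2.14) was the tested B and plasma cell marker and Csf3r (2.10) the tested neutrophil marker, and both rose, but without mouse 1187 Csf3r was at 1.29 and missed the threshold (edgeR adjusted p = 0.0505). Of 2 tested cholangiocyte markers 0 were called with edgeR. Of 4 tested platelet and erythroid genes 3 rose (2 without mouse 1187) and 1 fell, and of 9 tested hepatocyte markers 2 rose and 2 fell. The shares among all tested genes were 16.3% higher and 14.5% lower.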
